A study of Mus musculus with 2 samples.

Results

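The 3 mouse genes of microRNA-7 (Mir7-1, Mir7-2 and Mir7b) and the gene of microRNA-153 (Mir153) were examined in embryonic neural tube, the tissue from which the central nervous system develops. They are 4 of the 1973 miRNA genes in the deposited tables and were chosen by gene symbol, by a rule that uses no measured value, though with earlier results of these data known. Neural tube was taken at embryonic day 15.5 from B6NCrl mice, described as healthy, and small RNAs were sequenced from 2 pools labelled as biological replicates. Library 1 came from 78 embryos and library 2 from 62 embryos, with male and female embryos mixed in each pool. No treatment, mutant or other tissue was included, so the data give the level of each gene and the difference between the pools. Pooling hides the variation between embryos. Whole tissue was sequenced, so fewer cells of a type and less RNA per cell cannot be told apart.

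A miRNA is a short RNA cut from a hairpin-shaped precursor, and it lowers the output of messenger RNAs that pair with its seed, bases 2 to 8 from its 5′ end. Either side of the hairpin can yield a mature RNA, named the 5p and the 3p arm. MicroRNA-7 is known from neurosecretory and endocrine cells, such as hypothalamic neurons and pancreatic islets, and is held by the circular RNA Cdr1as, which carries many sites for it. MicroRNA-153 is known from neurons, where it acts on genes of vesicle release.

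The mature sequences are shown first because they decide which reads could be counted for which gene. Capitals mark the seed, and the sequences are those of RefSeq on GRCm38.p6, in which all 4 genes were found.
miR-7a-5p (Mir7-1 and Mir7-2): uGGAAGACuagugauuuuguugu
miR-7b-5p (Mir7b): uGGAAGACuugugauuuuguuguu
miR-7a-1-3p (Mir7-1): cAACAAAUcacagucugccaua
miR-7a-2-3p (Mir7-2): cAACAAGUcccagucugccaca
miR-7b-3p (Mir7b): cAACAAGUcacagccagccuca
miR-153-3p (Mir153): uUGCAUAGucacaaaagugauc
miR-153-5p (Mir153): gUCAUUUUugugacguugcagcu
Mir7-1 and Mir7-2 give the same 5p arm. The 5p arm of Mir7b differs from it by A10U over the 23 bases compared, with positions counted from 1 at the 5′ end and the miR-7a base first, and so keeps the same seed. No other gene among the 1738 mature sequences of the RefSeq table had the seed of miR-7 or that of miR-153-3p. The 3p arms differ more: miR-7a-2-3p differs from miR-7a-1-3p by A7G, A10C and U21C over 22 bases, and miR-7b-3p from miR-7a-1-3p at 5 of 22 bases, among them A7G in the seed.

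The longest stretch that the precursors of Mir7-1 and Mir7-2 share is 24 bases, which hold the whole 5p arm and 1 base more.
Shared by Mir7-1 and Mir7-2: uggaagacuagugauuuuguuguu
A read that lies within this stretch matches both genes exactly. Reads that aligned to more than 1 place were kept apart from the gene counts in these tables, 29.4% of all reads in library 1 and 29.7% in library 2. Counts given to Mir7-1 or Mir7-2 are therefore those that could be told apart, such as reads of the 3p arm or reads that reach past the shared stretch. The tables do not say which arm a read came from. Mir7b and Mir153 shared no stretch of 16 bases or longer with another of the 2202 annotated mouse miRNA precursors searched, on either strand, and Mir7b shared 14 bases at most with Mir7-1 and Mir7-2. Their mature arms had no exact match in any other annotated transcript. The genome outside annotated transcripts was not searched.

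**Figure D1:**
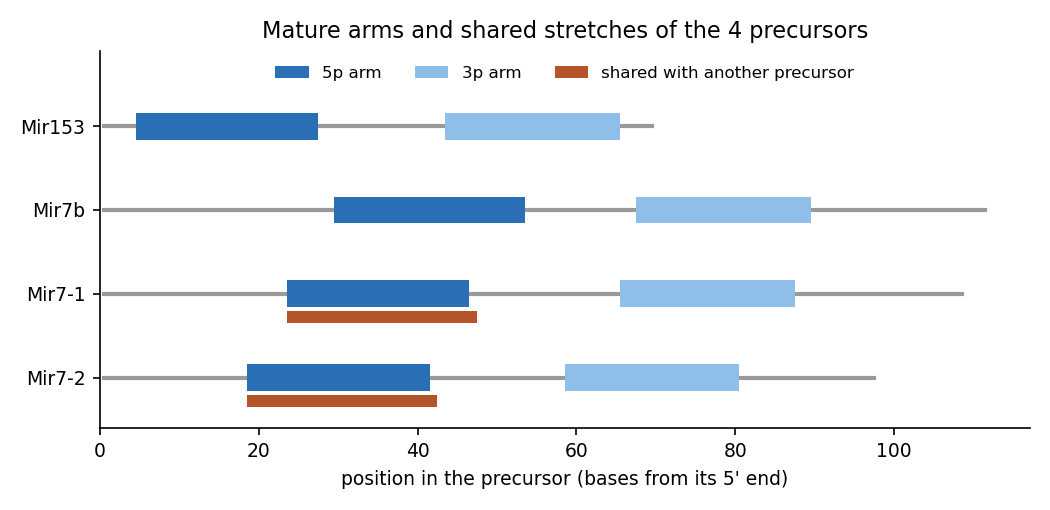
Precursors of the 4 genes as grey lines, with the position in bases from the 5′ end on the x axis, the 5p arm in dark blue and the 3p arm in light blue. The red bars mark the 24 bases that Mir7-1 and Mir7-2 share, which cover the 5p arm of both, while Mir7b and Mir153 have no such bar.

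The 4 genes lie on different chromosomes. Mir7-1 (ENSMUSG00000065434.1) lies on chromosome 13 at 58392779 to 58392886 of mm10, on the minus strand, in an intron of Hnrnpk, which encodes an RNA-binding protein found in nearly all cells. Mir7-2 (ENSMUSG00000065609.1) lies on chromosome 7 at 78888277 to 78888373 on the plus strand, inside no other annotated gene. Mir7b (ENSMUSG00000065491.1) lies on chromosome 17 at 56242988 to 56243098 on the plus strand, also inside no other annotated gene and 183 bases from the long non-coding RNA gene AC026385.1 on the same strand. Mir153 (ENSMUSG00000065538.1) lies on chromosome 12 at 117250817 to 117250885 on the plus strand, in an intron of Ptprn2, which encodes a membrane protein of dense-core secretory vesicles. Gm5441, an antisense gene, covers the same place on the other strand. None of the 4 genes overlapped an annotated exon of another gene on either strand, Gm5441 included.

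The symbols Mir7j and Mir7k also begin with Mir7, but RefSeq gives their mature RNAs as let-7j and let-7k, members of the let-7 family. They were left out here. Mir7j had 227 counts in library 1 and 370 counts in library 2, while Mir7k had 0 and 1.

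All 4 genes were measured in both libraries, with the most counts for Mir153 and Mir7b close behind it. Reads within the stretch shared by Mir7-1 and Mir7-2 are in neither count. The order is thus one of counts and not of how much of each miRNA the tissue held. Levels are given as CPM, a gene's sense-strand counts given per 1000000 of the library's sense-strand counts in miRNA genes, which were 4228685 in library 1 and 6039889 in library 2. Each read stands for 1 small RNA, so no division by length was made for these levels. Intervals are 95% exact Poisson intervals, cover counting error only, and treat PCR-amplified reads as independent. Together the 4 genes took 0.167% of the sense counts in library 1 and 0.179% in library 2.

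Mir153 had 2907 counts in library 1 and 4355 counts in library 2. Scaled, this was 687 CPM in library 1 (interval 663 to 713) and 721 CPM in library 2 (700 to 743), with a mean of 704 ± 23.8 CPM (SD, n = 2). It stood at place 105 of all 1973 genes in library 1 and at place 96 in library 2.

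Mir7b had 2568 counts in library 1 and 3796 counts in library 2. Its level was 607 CPM in library 1 (interval 584 to 631) and 628 CPM in library 2 (609 to 649), with a mean of 618 ± 15.0 CPM (SD, n = 2). The levels of Mir153 and Mir7b did not overlap, since the lower library of Mir153 lay above the higher library of Mir7b. Mir153 had 1.13 times the counts of Mir7b in library 1 (95% exact interval 1.07 to 1.19) and 1.15 times in library 2 (1.10 to 1.20). The difference exceeded counting error in each library (exact binomial test, two-sided, adjusted over 12 comparisons of members, p = 5.87e-06 and 8.39e-10).

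Mir7-1 and Mir7-2, counted without reads within their shared stretch, were lower. Mir7-1 had 871 counts in library 1 and 1332 counts in library 2, or 206 CPM (interval 193 to 220) and 221 CPM (209 to 233), with a mean of 213 ± 10.3 CPM (SD, n = 2). Mir7-2 had 736 counts in library 1 and 1317 counts in library 2, or 174 CPM (interval 162 to 187) and 218 CPM (206 to 230), with a mean of 196 ± 31.1 CPM (SD, n = 2). By mean level they took places 149 and 158 of all genes, against place 102 for Mir153 and place 107 for Mir7b.

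Mir7b had 2.95 times the counts of Mir7-1 in library 1 (95% exact interval 2.73 to 3.19) and 2.85 times in library 2 (2.68 to 3.04). Against Mir7-2 it had 3.49 times in library 1 (3.21 to 3.79) and 2.88 times in library 2 (2.71 to 3.07). Reads within the shared 5p stretch could be given to neither Mir7-1 nor Mir7-2, whereas Mir7b has no such stretch in common with another precursor, so the size of this gap between the genes is not a measure of how much miR-7a and miR-7b the tissue held. The part of such reads in the gap was not tested. The search for shared stretches took exact matches only, and the 5p arm of Mir7b differs by 1 base. Whether the alignment allowed mismatches is not known.

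Mir7-1 and Mir7-2, which share the 5p arm, were close to each other. Their libraries overlapped in level. Mir7-1 had 1.18 times the counts of Mir7-2 in library 1 (95% exact interval 1.07 to 1.31; exact binomial test, two-sided, p adjusted over 12 comparisons = 0.000899) and 1.01 times in library 2 (0.937 to 1.09; adjusted p = 0.786). Per base of the annotated precursor, which is 108 bases long for Mir7-1 and 97 bases for Mir7-2, the order of the means was the other way round, so no order between them is given. The 3 Mir7 genes together stood at 987 CPM in library 1 and, in library 2, at 1067 CPM, with a mean of 1027 ± 56.4 CPM (SD, n = 2), a sum without the reads that aligned to more than 1 place.

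**Figure D2:**
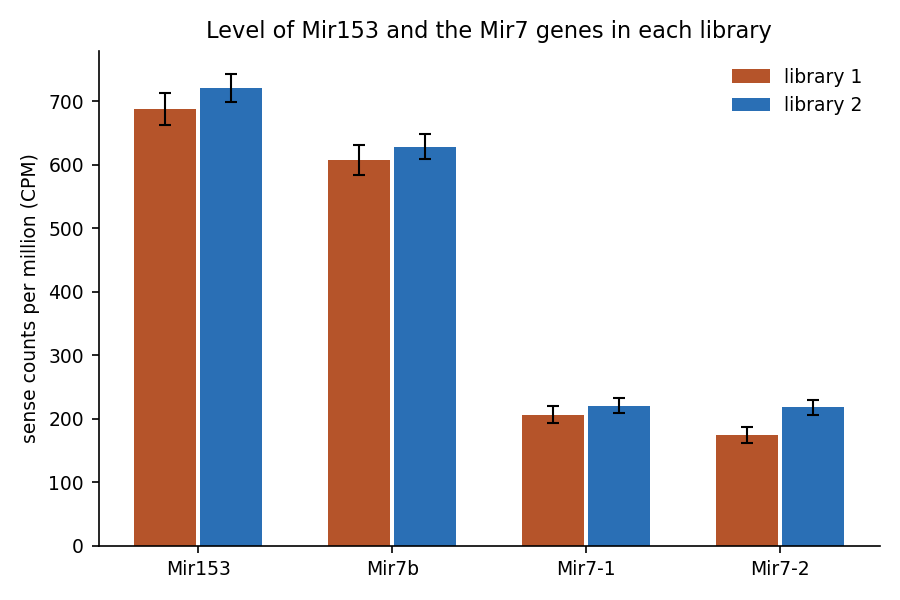
Level of each gene in CPM (y axis, from 0) in library 1 (red, left bar) and library 2 (blue, right bar), with 95% exact Poisson intervals as error bars. Mir153 at 687 and 721 CPM and Mir7b at 607 and 628 CPM stand above Mir7-1 and Mir7-2, which lie between 174 and 221 CPM, and the widest gap between libraries relative to its level is that of Mir7-2.

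All counts of the 4 genes were on the sense strand of the gene, with 0 antisense counts in both libraries. A count of 0 allows an antisense share of up to 0.408% of the sense counts for Mir7-2 in library 1 and 0.0689% for Mir153 in library 2, the widest and the narrowest of these limits.

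Among all 363 genes with at least 10 counts in each library, the median of the mean levels was 136 CPM and the upper quartile 869 CPM, so the 4 genes lay between these values. The genes nearest in level over the 2 libraries, by distance on log2(CPM + 1), were Mir384 and Mir328 for Mir7-1, Mir760 and Mir700 for Mir7-2, Mir188 and Mirlet7c-2 for Mir7b, and Mir187 and Mir128-2 for Mir153. Mir128-2 is itself known from neurons. Mir760 was nearest of all, at 173 CPM in library 1 and, in library 2, 218 CPM, against 174 and 218 CPM for Mir7-2. With 2 libraries of 1 group, nearness says no more than that the levels were alike.

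**Figure D3:**
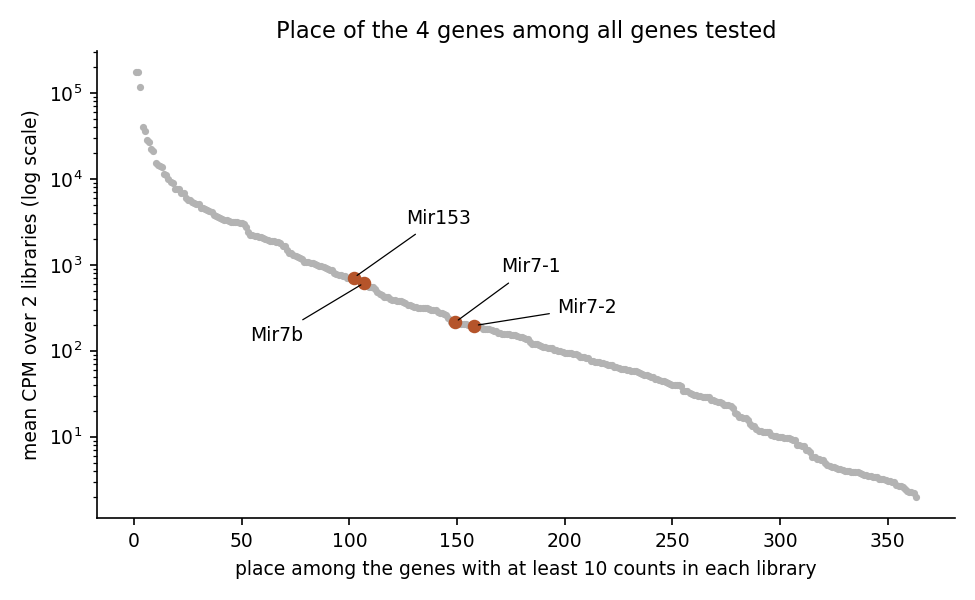
Mean CPM over both libraries (y axis, log scale) of the genes with at least 10 counts in each library, ordered from the highest to the lowest (x axis). The red points mark Mir153, Mir7b, Mir7-1 and Mir7-2, in this order from left to right, at 704, 618, 213 and 196 CPM.

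The pools were then compared gene by gene. Library sizes were scaled with TMM factors, and each gene's counts were set against the share those sizes predict (exact binomial test, two-sided, Benjamini-Hochberg adjustment over 363 genes, threshold 0.05). The test compares these libraries and not conditions, and its p-values hold counting error only. It called 49.9% of all genes tested, 25.6% as higher in library 1 and 24.2% as higher in library 2. Of the 4 genes here, 3 were called, all as lower in library 1 than in library 2, and 1 was not. With as many as 49.9% of genes called, a call by itself sets no gene apart, and the sizes matter more. As log2 of library 1 over library 2, the median was -0.12 over the 4 genes and -0.0036 over all genes tested.

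The counts of Mir7-1 and Mir7-2 leave out reads within their shared stretch, so their differences between libraries are those of the remaining reads. Mir7-2 had the widest difference. Its log2 value of library 1 over library 2 was -0.36 (95% exact interval -0.49 to -0.23; exact binomial test, adjusted p = 1.78e-07), which is 1.28-fold higher in library 2. Mir153 had a log2 ratio of -0.10 (-0.17 to -0.035; adjusted p = 0.00753). Mir7b had a log2 ratio of -0.083 (-0.16 to -0.011; adjusted p = 0.0495), which is 1.06-fold higher in library 2. For Mir7-1 it was -0.13 (-0.26 to -0.0080; adjusted p = 0.0705), which did not pass. With TMM factors from all genes, the fit made first and replaced after its result was seen, Mir7-1 was called (log2 ratio -0.16, adjusted p = 0.0196). The calls for Mir153 and Mir7b were lost with library sizes alone (adjusted p = 0.0912 and 0.274), while the call for Mir7-2 was kept (adjusted p = 2.62e-06). Mir7b also lost its call with DESeq2 size factors (adjusted p = 0.0615) and with no filter on low counts (adjusted p = 0.0911).

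Counting error is the least spread there can be. With the spread between the pools added, as edgeR's exact test with a common dispersion (a coefficient of variation of 34.3% over all genes, estimated from these same libraries), 2.2% of the genes tested and 0 of the 4 genes were called, with an adjusted p of 1 for each of them. Unadjusted, 0 of the 4 passed 0.05 in edgeR's test, against 4 in the binomial test. At this spread, even Mir143 with a log2 ratio of 2.15 was not called (edgeR's exact test, adjusted p = 0.150). Differences as small as those of the 4 genes could thus not be called, and their missing calls do not show that the pools were alike. The common dispersion takes in the epithelial genes described below, which differed far more between the pools than most genes.

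The ratio of 1 gene to another within a library needs no scaling, and these ratios were added after the values were seen. Mir153 to Mir7b stood at 1.13 in library 1 and 1.15 in library 2 (Fisher's exact test on the counts, two-sided, adjusted over 6 pairs, p = 0.713). Mir153 to Mir7-1 stood at 3.34 in library 1 and 3.27 in library 2 (Fisher's exact test, adjusted p = 0.713). Mir153 to Mir7-2, by contrast, stood at 3.95 in library 1 and 3.31 in library 2 (Fisher's exact test, adjusted p = 0.0018). Mir7b to Mir7-2 stood at 3.49 and 2.88 (Fisher's exact test, adjusted p = 0.00164), and Mir7-1 to Mir7-2 at 1.18 and 1.01 (Fisher's exact test, adjusted p = 0.0272). The 3 pairs with Mir7-2 share its counts, so they restate its lower count in library 1, already seen, and are not separate support for it. Each library is 1 sample, so whether another pool would show this was not tested. Reads within the stretch shared by Mir7-1 and Mir7-2 are in none of these ratios.

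Mir671 and Mir448 have a link in sequence or circuit to these miRNAs. Mir671, whose miRNA directs the cutting of Cdr1as, stood at 275 CPM in library 1 and, in library 2, at 257 CPM, a log2 difference of 0.064 that did not pass (adjusted p = 0.382 by the exact binomial test). Its level thus lay between those of Mir7-1 and Mir7b. Mir448 stood at 51.8 CPM in library 1 and, in library 2, at 76.2 CPM, a log2 difference of -0.59 (adjusted p = 1.28e-06 by the exact binomial test) and a wider gap than any of the 4 genes. By edgeR's exact test, Mir448 was not called. Its 3p arm is shown for the bases it has in common with miR-153-3p, with bases 2 to 8 in capitals.
miR-448-3p (Mir448): uUGCAUAUguaggaugucccau
miR-153-3p (Mir153): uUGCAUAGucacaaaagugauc
The arms share bases 1 to 7 and first differ by G8U, with the base of miR-153-3p first. Mir153 was at 704 ± 23.8 CPM and Mir448 at 64.0 ± 17.2 CPM (SD, n = 2 each), and their libraries did not overlap.

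Among 14 other neuron-enriched genes (the Mir124, Mir128, Mir129, Mir132, Mir137, Mir138, Mir212 and Mir218 genes), 11 were tested, of which 0 were called as higher in library 1 and 3, or 27.3%, as higher in library 2, near the 24.2% of all genes tested. By edgeR's exact test, 0 of the 11 were called. Their median log2 ratio was -0.10, close to the -0.12 of the 4 genes here. The called ones were Mir137 with a log2 ratio of -0.16, Mir132, an activity-dependent miRNA gene, with -0.34, and Mir128-2 with -0.23. Of the 11, 4 had a ratio above 0, from 0.050 for Mir138-1 to 0.12 for Mir129-1, and did not pass. Mir153 was close in level to Mir132, at 808 ± 120 CPM, and Mir128-2, at 707 ± 68.9 CPM (SD, n = 2 each). The list reached a sum of 11304 CPM in library 1 and, in library 2, of 12085 CPM, against 1675 and 1788 CPM for the 4 genes. The 3 Mir124a genes had 2 to 17 counts per library and were not tested. Reads that aligned to more than 1 place are in none of these levels. Sequence shared among the genes of the list was not searched. Their levels are thus no measure of how much of each miRNA the tissue held.

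Among 5 genes known from endocrine cells and pancreas, 1 was called as higher in library 1 and 2 as higher in library 2, against 25.6% and 24.2% of all genes tested, with a median log2 ratio of -0.34. Mir375, an islet and endocrine miRNA gene, stood at 896 CPM in library 1 and, in library 2, at 136 CPM, a log2 ratio of 2.69, and was also called by edgeR's exact test (adjusted p = 0.0177). That test called 8 genes in all, of which 6 were epithelial marker genes, given below, that were also higher in library 1. Which cells the Mir375 reads came from was not tested. The Mir7 genes, also known from islets, had the opposite sign. Mir217 and Mir216b of pancreas had log2 ratios of -0.46 and -0.44 and were not called by edgeR's exact test (adjusted p = 1 for each), while Mir216a with -0.34 and Mir184 with -0.072 did not pass (exact binomial test, adjusted p = 0.0821 and 1).

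**Figure D4:**
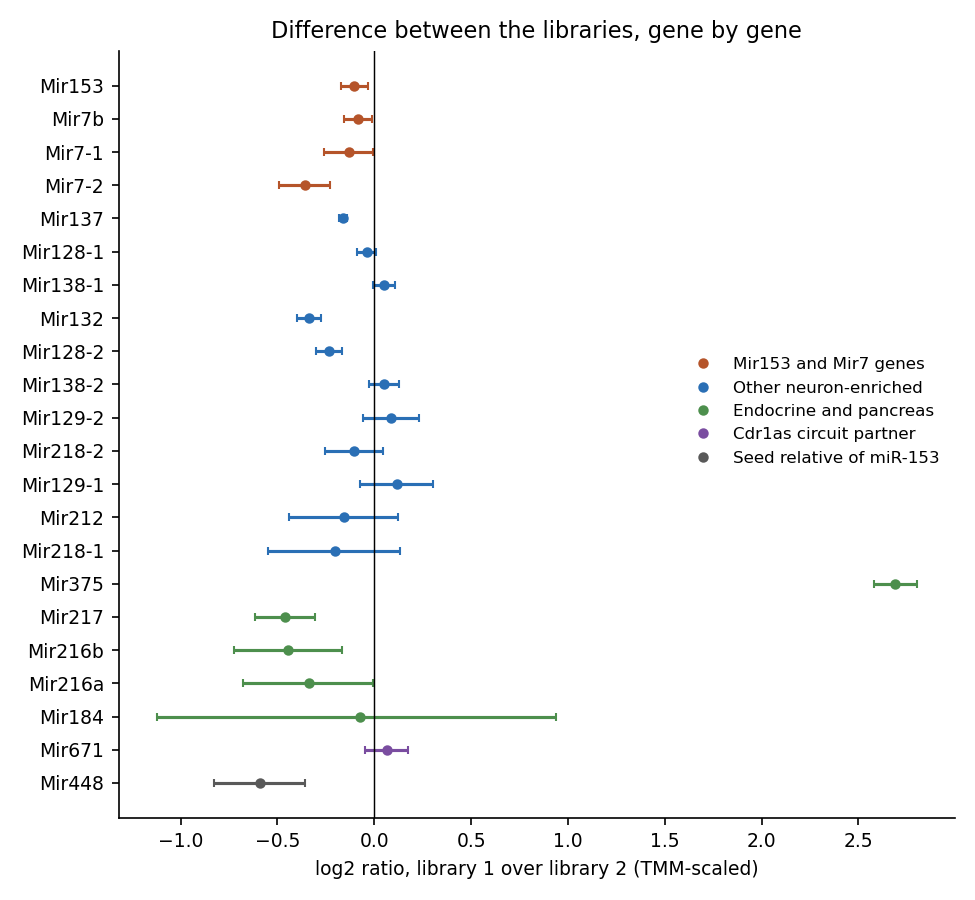
Log2 ratio of library 1 over library 2 (x axis, TMM-scaled) of the 4 genes and of the tested genes of 4 lists (rows), with 95% exact counting intervals. Mir153 and the Mir7 genes lie left of 0, between -0.083 and -0.36, and Mir375 at 2.69 lies far to the right of every other gene shown.

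Markers of other tissues were also set side by side, with the exact binomial test, which called 25.6% of all genes tested as higher in library 1, and with edgeR's exact test. All 7 epithelial marker genes were called as higher in library 1 by the binomial test and 6 of them by edgeR's test. They summed to 5458 CPM in library 1, against 631 CPM in library 2. The 5 smooth muscle and mesenchyme genes reached 19290 CPM in library 1 and, in library 2, 4459 CPM, and the binomial test called all 4 tested as higher in library 1. The endothelial gene Mir126a was at 22011 CPM in library 1 and, in library 2, at 19666 CPM. The 3 leukocyte genes analysed, Mir223, Mir155 and Mir150, reached 433 CPM in library 1 and, in library 2, 237 CPM. Mir142 was planned as well, but no gene was found under that symbol. The 3 erythroid genes reached 202 CPM in library 1 and, in library 2, 183 CPM. The binomial test called Mir126a, 2 of the 3 leukocyte genes and 1 of the 3 erythroid genes as higher in library 1, and 0 as higher in library 2. By edgeR's exact test, 0 of the smooth muscle, endothelial, leukocyte and erythroid genes were called. No gene of these lists was at 0 in both libraries. Of the 6 neuronal marker genes, Mir137 stood at 6917 ± 428 CPM, Mir128-1 at 1275 ± 3.71 CPM and Mir128-2 at 707 ± 68.9 CPM (SD, n = 2 each), while the 3 Mir124a genes were near the floor, between 0.47 and 2.81 CPM. These counts leave out reads that aligned to more than 1 place. Those of the Mir124a genes are thus no measure of how much miR-124 the tissue held. The part of the other tissues in the lower levels of Mir7-2, Mir153 and Mir7b in library 1 was not tested.

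The letters complementary to the seeds, GTCTTCC for miR-7 and CTATGCA for miR-153-3p, were searched in GENCODE M21 transcripts. The strand opposite to the Cdr1 transcript, from which Cdr1as is made, held GTCTTCC 79 times in 1554 bases, and 72 of the 78 distances between the starts of neighbouring matches were 18 bases. It held the letters for miR-153-3p 0 times, and the Cdr1 strand itself held GTCTTCC 0 times. For comparison, the last 1554 bases of the longest coding transcript of each other gene were searched on both strands. Shorter transcripts and the rest of each transcript were left out. Among these 33268 windows, 14.7% held GTCTTCC at least once and 4 was the most in any window. These are matches of letters. An example, with 14 bases before and 1 base after and the match in capitals, lies on chromosome X within 61184005 to 61185558 of mm10.
Opposite strand of Cdr1, miR-7: tccccaaaatccatGTCTTCCt
The seed that these matches pair with is carried by the 5p arms of Mir7-1, Mir7-2 and Mir7b alike, so the counts of any of them alone are not the amount of this seed in the tissue.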

How the data were processed

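Small RNA libraries of 2 neural tube pools were analysed from the deposited tables of raw read counts per miRNA gene. They are gene quantifications on mm10 with GENCODE M4, per the labels and the README files. Not given in the sources used here: aligner and counter. The deposited counts come without regard to strand, on the sense and on the antisense strand. Sense counts were used, and the 4 rows that name no gene (45.7% of library 1, 47.7% of library 2) were left out. Identifiers were matched without version to GENCODE M21, with 1894 of 1973 found. The 4 genes matched with their version.

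Genes with at least 10 counts in each library were tested with exact binomial tests on sizes scaled with TMM (edgeR 4.0.16, R 4.3.3), with factors from the same genes. A first fit took the factors from all genes and called all 4 members; the genes for the factors were changed after its result was seen, to those tested, and the first fit is kept as an alternative. With each library set against the other, no residual degrees of freedom remain for edgeR's quasi-likelihood test. The common dispersion for edgeR's exact test was estimated with both libraries as 1 group. DESeq2 1.42.0 gave other size factors. Nearest genes were found on log2(CPM + 1). The binomial test was tested on simulated data. Python 3.11.15 was used with scipy 1.17.1, numpy 2.4.6, pandas 2.3.3 and matplotlib 3.10.9. Sequences came from RefSeq on GRCm38.p6 and from GENCODE M21 transcripts. The genes named are the 4 members, all genes of the lists and the 2 nearest genes of each member. Members and lists were chosen with earlier results of these data known. The labels call the pools biological replicates from separate biosamples and do not say whether the libraries were prepared separately, so the spread between them may be technical. Binomial and Fisher p-values hold counting error only, and those of edgeR's exact test also hold the spread between these 2 libraries.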

Additional observations from a re-analysis of the deposited data

How the results depend on the processing

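Per 1000000 of all reads in the table, the levels were 112 for Mir7-1, 103 for Mir7-2, 324 for Mir7b and 369 for Mir153, lower by construction. TMM, DESeq2 size factors, unstranded counts and leaving out either library moved each level by less than 1 SD; with 2 libraries the last must hold. The mean log2 of Mir7-1 over Mir7-2, 0.13, was -0.025 per base of precursor, whose lengths differ. With library sizes alone, the log2 ratios of Mir7b and Mir153 were -0.050 and -0.069, no longer called. Mir7b also lost its call with DESeq2 size factors, at -0.080, and with no filter on low counts, at -0.083, where more genes are tested. With TMM factors from all genes, Mir7-1 was called at -0.16, as were the other 3 genes; this fit was made first, and the factors used in its place were chosen after seeing the data. With edgeR's exact test, Mir7-2, Mir7b and Mir153 were not called, at -0.36, -0.083 and -0.10, and 8 genes in all were, against 181. That test could not call differences as small as those of Mir7-2, Mir7b and Mir153. The signs of the 4 ratios were the same under all alternatives run. The filters on counts and edgeR's exact test keep the same scaling, so they could not change a sign. Only the other scalings and the unstranded counts could. No paired analysis was possible because there is 1 group. Counting intervals cover depth only, not how reads shared by Mir7-1 and Mir7-2 were assigned.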
